A study of Mus musculus with 3 samples.

Results

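Midlobular hepatocytes, taken here as the middle of 5 bands along the axis from portal to central vein, were 838 of the 4190 cells that passed the filters, out of 16918 barcodes in 3 libraries. The cells were chosen by a measured score, computed per cell from 8 genes. The score summed log1p counts per 10000 over Cyp2e1, Oat, Rgn and Cyp2c50, which are known from pericentral cells, and subtracted the same sum over Cyp2f2, Sds, Hal and Ass1, known from periportal cells. Barcodes needed at least 500 genes, at most 50% mitochondrial counts and 0 unique molecular identifiers (UMIs) of Glul, the glutamine synthetase of the innermost pericentral cells. Each library was divided at its own score percentiles into 5 bands of equal cell number. Scores from the 40th to the 60th percentile defined the middle band, and those below the 20th and above the 80th percentile the periportal and pericentral bands, with 839 cells each.

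The hepatocytes came from wild-type mice and were released by collagenase perfusion. The mice were fed for 12 weeks. One group ate a normal diet (ND). A second ate a 60% high fat diet (HFD), and the third ate that diet with 0.25% of the secondary bile acid hyodeoxycholic acid added (HFD_HDCA). Each diet had 1 library made with a droplet 3′ kit that counts UMIs. For the mice, the sources used here give neither number, sex nor age. Since a diet is a single library, no difference between diets has a replicate check, no p-value was computed for it, and its 95% interval covers counting error alone.

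Hepatocytes divide metabolic work along the lobule. Periportal cells make urea and glucose, pericentral cells make glutamine, bile acids and drug-metabolising enzymes, and cells between them are known for hepcidin (Hamp), for Igfbp2, a secreted binder of insulin-like growth factors, and for Ccnd1, the cyclin that drives entry into the cell cycle. Hepcidin is a peptide hormone that removes the iron exporter ferroportin (Slc40a1) from cell surfaces. Its gene is switched on by bone morphogenetic proteins (BMPs) from liver endothelial cells through SMAD factors, and by interleukin 6 through STAT3. The mouse carries a second copy, Hamp2.

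By GENCODE, Hamp lies at chr7:30942368-30944032 and Hamp2 at chr7:30922372-30924681, both on the minus strand of GRCm38, and Igfbp2 at chr1:72824503-72852474 on the plus strand. The 250 bases before the annotated start of Hamp (chr7:30944030-30944279) and of Hamp2 (chr7:30924182-30924431) are shown 5′ to 3′ on the gene's strand, from RefSeq on GRCm38.p6. The starts are RefSeq's, and for Hamp2 that start lies inside the GENCODE gene given above, so the window does too. They are shown because these neighbouring copies are the main genes of the comparison. Capitals mark the letters GGCGCC, the core of BMP response elements, and TTCNNNGAA, the letters of a STAT site.
Hamp: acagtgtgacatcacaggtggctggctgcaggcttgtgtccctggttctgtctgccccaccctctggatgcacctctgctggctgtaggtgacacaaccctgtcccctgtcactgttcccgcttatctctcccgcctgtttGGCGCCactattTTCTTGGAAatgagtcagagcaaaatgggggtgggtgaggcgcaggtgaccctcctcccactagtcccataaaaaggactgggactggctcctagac
Hamp2: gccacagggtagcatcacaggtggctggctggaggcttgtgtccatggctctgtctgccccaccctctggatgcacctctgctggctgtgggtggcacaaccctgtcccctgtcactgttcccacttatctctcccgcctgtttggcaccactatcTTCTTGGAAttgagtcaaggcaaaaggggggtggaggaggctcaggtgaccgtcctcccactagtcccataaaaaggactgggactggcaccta
The windows had the same base at 227 of 247 aligned positions (91.9%), with 0 gaps. Hamp held GGCGCC from 109 bases before its start, and the aligned letters of Hamp2 differed by G4A, counted from the first letter of the motif with the Hamp base first. TTCNNNGAA was in both windows, as the letters TTCTTGGAA, starting 97 bases before Hamp and 94 before Hamp2. On either strand, 9.59% of 32851 windows of this length held GGCGCC and 7.02% held TTCNNNGAA, and the 2 motifs share no letters here. A match describes letters, and their use in these cells was not measured.

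The middle band had 270 ND, 236 HFD and 332 HFD_HDCA cells, with 562031, 401367 and 540211 UMIs of nuclear genes outside the score. Its score range was -6.05 to -2.37 in ND, -2.4996 to 5.01 in HFD and 2.27 to 6.24 in HFD_HDCA. The ND range and the HFD_HDCA range did not overlap, so the middle of one library was not the middle of another on the score's own scale. Members within 1 score unit of a border numbered 152, 73 and 174, and cells as near outside it 183, 83 and 185. The middle band is thus a range of a continuous score, not a separate cell type.

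The genes that chose the cells are given as a description. Levels are counts per 1000000 (CPM) nuclear UMIs outside the score genes, summed over the cells of a band. Cyp2e1, a pericentral cytochrome P450, had 272 CPM in ND, 3366 CPM in HFD and 5255 CPM in HFD_HDCA. Cyp2f2, a periportal P450, stood at 2165, 1116 and 143 CPM, and Hal, a histidine-degrading enzyme, at 555, 229 and 143. Ass1, a urea cycle enzyme, was near one level in the 3 libraries, at 2541, 2653 and 2754 CPM. The ND band therefore leaned to the periportal side and the HFD_HDCA band to the pericentral side.

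All 14 hepatocyte markers were detected in the middle band of every library, summing to 176848, 156627 and 170548 CPM in ND, HFD and HFD_HDCA. Depth was lower than at the periportal end: the median cell had 1598, 1563 and 1194 UMIs, against 4072, 2996 and 5381 in the periportal band and 1406, 2169 and 2434 in the pericentral band. In 46, 18 and 18 middle cells the 8 score genes had under 5 UMIs together. Of 15 liver endothelial markers in the files, 15, 12 and 15 were detected in the middle band, with 175, 87 and 255 UMIs, and of 15 Kupffer and macrophage markers 11, 15 and 15, with 48, 225 and 190 UMIs. Together with lymphocyte and stellate markers they summed to 431, 877 and 894 CPM in the middle, but to 17.0, 28.7 and 13.1 CPM in the periportal band and 811, 5.90 and 13.5 in the pericentral band. Markers of sinusoidal cells were thus higher in the middle than at both ends in HFD and HFD_HDCA. In ND they were highest in the band next to the pericentral one, at 3463 CPM. Of 17 lymphocyte markers 0, 6 and 4 were detected in the middle, with 0, 18 and 12 UMIs, and Cd3e was at 0 in each library. Of 9 bile duct markers 1, 2 and 2 were detected, with 64, 17 and 11 UMIs, and Krt19 and Epcam were at 0. Doublets were not removed. Libraries shared 6 to 16 barcodes pairwise, and 1 among the kept cells.

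**Figure D1:**
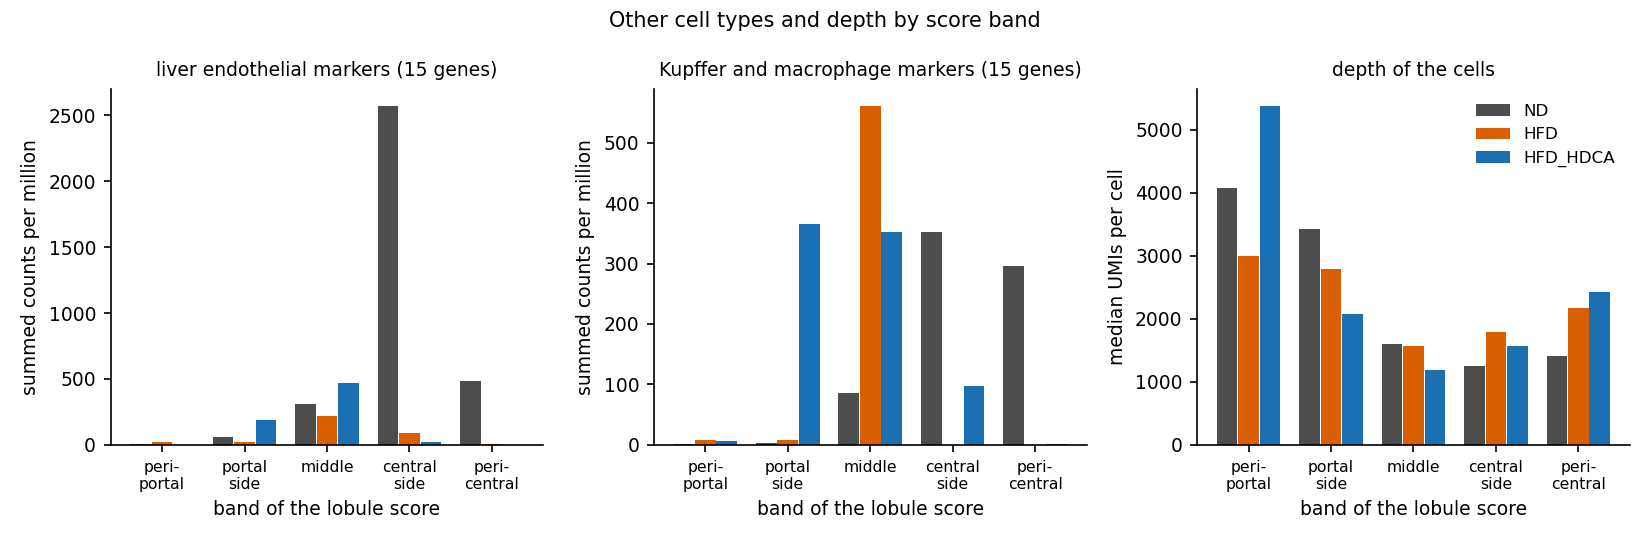
Summed CPM of liver endothelial and of Kupffer markers, and median UMIs per cell, on the y axes for the 5 score bands from periportal to pericentral on the x axis, 1 bar per library. Median depth in the middle band (1598, 1563 and 1194 UMIs) was below that of the periportal band in each library, and HFD and HFD_HDCA carried their endothelial and Kupffer counts mainly in the inner bands. The highest endothelial bar was that of ND in the band next to the pericentral one, at 2569 CPM.

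Hamp, the hepcidin gene, peaked in the middle band of 1 library of the 3. In ND it stood at 6751 CPM in the periportal band, 6114 (5911 to 6321) in the middle and 5002 in the pericentral band, with its highest value, 7361 CPM, in the band next to the pericentral one. In HFD it stood at 1357, 3212 (3039 to 3392) and 2447 CPM, and again the band next to the pericentral one was highest, at 3553 CPM. In HFD_HDCA the levels were 3706, 4656 (4475 to 4841) and 1928 CPM, and the middle band was the highest of the 5. Every HFD and HFD_HDCA value lay below the pericentral ND value of 5002 CPM. The middle was above the periportal end in HFD and HFD_HDCA and below it in ND, and above the pericentral end in all 3 libraries.

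Across libraries the fitted log2 difference of Hamp was 0.32 (SE 0.23) for middle minus periportal and 0.63 (SE 0.23) for middle minus pericentral. The adjusted p was 0.66 and 0.18 by edgeR's quasi-likelihood test on the 15 sums of library and band. Hamp was called in 0 of 19 alternative settings, in which the adjusted p ran from 0.145 to 0.9995 for the periportal and from 2.16e-05 to 0.896 for the pericentral comparison. The median middle cell had 45.6 Hamp UMIs per 10000 in ND, 18.9 in HFD and 40.9 in HFD_HDCA.

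Hamp2 was not highest in the middle band of any library, though it came close in HFD and HFD_HDCA. Its level was 79.8 CPM periportal, 97.9 middle and 134 pericentral in ND. There Hamp2 was highest in the band next to the pericentral one, on 87 UMIs. It was 96.1, 281.5 and 249.9 CPM in HFD, with 285 in the band next to the periportal one. It was 441, 814.5 and 319 CPM in HFD_HDCA, with 822 in the band next to the periportal one. The libraries did not overlap in the middle band, HFD_HDCA being highest and ND lowest. The fitted differences were 0.79 (SE 0.26) and 0.51 (SE 0.27) on the log2 scale, with adjusted p of 0.14 and 0.44. Hamp2 was called higher than both ends in 3 of 19 alternatives, with adjusted p from 2.96e-07 to 0.9995 and from 7.15e-05 to 0.967. Hamp and Hamp2 are near-identical copies, and how reads were split between them cannot be told from the counts.

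Igfbp2 was the marker whose middle band lay above both ends in 3 of 3 libraries. In ND it stood at 356 CPM periportal, 603 middle and 544 pericentral. In HFD the levels were 309, 436 and 264 CPM, and in HFD_HDCA 65.5, 196 and 65.4 CPM. In each library the middle band held the highest of the 5 values, and every HFD_HDCA value lay below every ND and HFD value. The middle and pericentral values of ND lay close together, on 339 and 267 UMIs. The fitted difference was 0.79 (SE 0.20, adjusted p 0.033, edgeR) over the periportal and 0.70 (SE 0.20, adjusted p 0.057) over the pericentral band, so the second comparison missed the threshold of 0.05. Igfbp2 was called against both ends in 10 of 19 alternatives, with adjusted p from 2.07e-05 to 0.9995 and from 0.000459 to 0.933. With cells carrying sinusoidal markers left out of the sums, an alternative added after the data were seen, it stood at 612, 447 and 203 CPM in the middle of ND, HFD and HFD_HDCA, and the differences were 0.84 (adjusted p 0.00602) and 0.72 (0.0192). With depth thinned or kept to a range, and the bands drawn anew, the differences of Igfbp2 were smaller. They were 0.38 (adjusted p 0.507, edgeR) and 0.53 (0.229) for cells thinned to 1000 UMIs. For cells of 1000 to 4000 UMIs, whose depth could still differ between bands, they were 0.32 (0.573) and 0.56 (0.165). They passed neither test without HFD, at 1.01 (0.175) and 0.74 (0.333), or without HFD_HDCA, at 0.56 (0.233) and 0.44 (0.251).

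**Figure D2:**
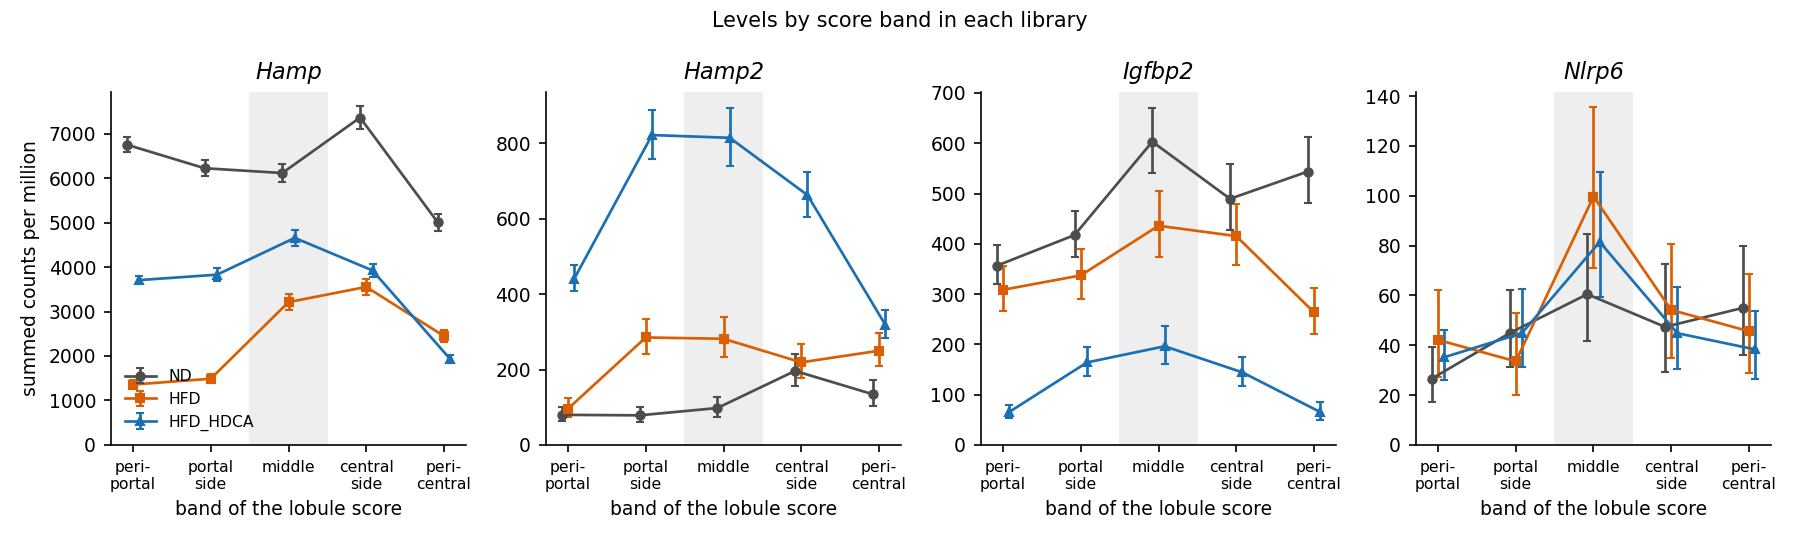
Levels (CPM, y axes) of Hamp, Hamp2, Igfbp2 and Nlrp6 in the 5 score bands (x axis) of each library, with exact Poisson 95% intervals as bars. Igfbp2 and Nlrp6 are highest in the middle band in all 3 libraries, Hamp only in HFD_HDCA and Hamp2 in none. In ND the middle values of Igfbp2 and Nlrp6 lay little above the pericentral ones.

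Set on the score itself rather than on percentiles, the order of the libraries was the same as in the middle band in all 6 windows for Igfbp2 and in all but 1 for Hamp and for Hamp2. In cells scoring -4 to 0, Hamp stood at 7070, 1990 and 3875 CPM in ND, HFD and HFD_HDCA, and in cells scoring 4 to 8 at 5416, 3996 and 4617. In ND the level of Hamp was lower in the windows above 4 than below it. In HFD and HFD_HDCA it was highest from 4 to 8 and stood at 2666 and 2449.6 CPM from 8 to 12, so there HFD was above HFD_HDCA. Igfbp2 stood at 579, 410 and 199.6 CPM for scores of -4 to 0, and at 360, 307 and 61.8 CPM for scores of -12 to -8. Hamp2 stood at 128, 360.5 and 895 CPM for scores of -4 to 0, the window in which HFD and HFD_HDCA were highest, and for scores of -12 to -8 it was near one level in ND and HFD, at 90.8 and 86.3 CPM. In HFD and HFD_HDCA Igfbp2 was lower for scores of 8 to 12, at 308 and 90.4 CPM, than in the 3 windows from -4 to 8.

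**Figure D3:**
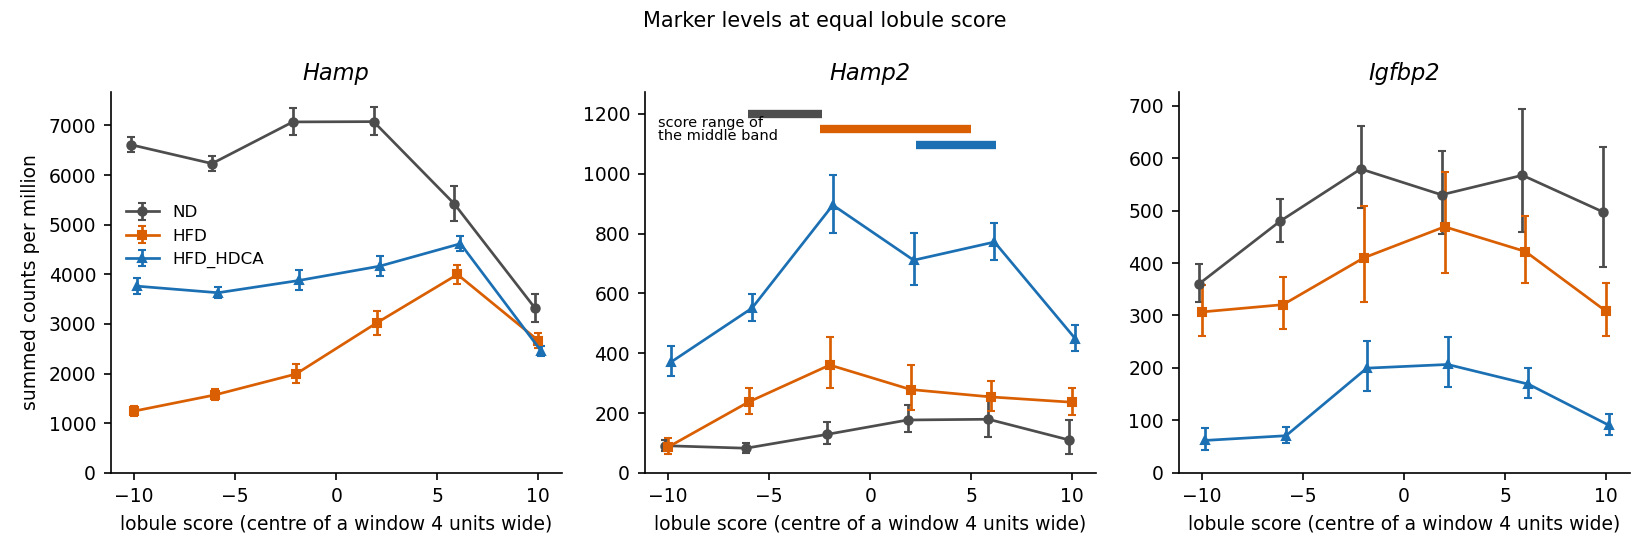
Levels of Hamp, Hamp2 and Igfbp2 (CPM, y axes) in score windows 4 units wide (x axis, low scores periportal), 1 line per library, with exact Poisson 95% intervals. Horizontal bars give the score range of each library's middle band, -6.05 to -2.37 in ND, -2.4996 to 5.01 in HFD and 2.27 to 6.24 in HFD_HDCA.

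Genes outside the score were tested for a higher level in the middle than at both ends. Sums per library and band were fitted with library and band as terms, and a gene was called when both adjusted p-values were under 0.05 and the direction held in 3 of 3 libraries. The cells and the score come from the same libraries, so a gene that follows the score genes had to differ between the ends. Of 6969 genes, 1 was called higher (0.0143%) and 0 lower (0%). At an unadjusted p under 0.05 in both comparisons, 32 genes were higher and 25 lower in all 3 libraries, and DESeq2 called 1 higher, Igfbp2, and 0 lower. Without any test, the middle lay above both ends in 3 libraries for 376 genes (5.40%) and below both for 157 (2.25%).

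The called gene was Nlrp6, a cytosolic sensor protein of the inflammasome family, at chr7:140920902-140929192. It stood at 26.6 CPM periportal, 60.5 middle and 54.99 pericentral in ND. It stood at 42.2, 99.7 and 45.6 CPM in HFD, and at 35.2, 81.45 and 38.3 CPM in HFD_HDCA. The middle values rest on 34, 40 and 44 UMIs, and they lay above all other bands of their library. The pericentral values rest on 27, 23 and 34 UMIs, and in ND the middle lay little above that end. The differences were 1.1 (SE 0.20, adjusted p 0.0028) and 0.82 (SE 0.21, adjusted p 0.034) on the log2 scale by edgeR. Nlrp6 was called in 6 of 19 alternatives, with adjusted p from 8.11e-05 to 0.715 and from 0.00677 to 0.789. It was not called for cells of at least 800 genes, cells thinned to 1000 UMIs or cells of 1000 to 4000 UMIs, nor by DESeq2. Without HFD the differences were 1.08 (adjusted p 0.0873) and 0.69 (0.346), and without HFD_HDCA 1.14 (0.109) and 0.67 (0.333), while without ND they were 1.13 (0.0016) and 1.09 (0.00677). The number of genes called higher was 17 without ND, among them Hamp2, Igfbp2, Nlrp6, Ccnd1, the clock gene Per1, the macrophage gene Cd5l and the antigen presentation gene Cd74. It was 1 without HFD, the chemokine Cxcl9, and 0 without HFD_HDCA.

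In 4 further alternatives, added after the data were seen, cells were left out or bands redrawn. Leaving cells with 2 or more UMIs of endothelial, macrophage, lymphocyte or stellate markers out of the sums gave 3 genes higher than both ends, with Nlrp6 and Igfbp2 among them. With percentiles taken over the cells of all libraries together, 81 genes were higher in the middle than at both ends and 11 lower. Of the 81, 15 were on the lists of other cell types. Among the 6969 genes tested, those lists held 10 endothelial, 4 Kupffer and macrophage, 2 erythroid, 1 bile duct and 1 stellate gene. When the cells with sinusoidal markers were also left out, 15 genes were higher and 3 lower. The 15 included Hamp2, Igfbp2, Ccnd1, the phospholipid enzyme Pcyt2 and the lipogenic factor Mlxipl, and the 3 lower ones were C6, Nckap1 and the bile acid importer Slc10a1. In that setting the log2 differences were 1.25 and 0.94 for Hamp2, 0.80 and 0.785 for Igfbp2, and 0.42 and 0.82 for Hamp. The pooled middle held 379 ND, 176 HFD and 283 HFD_HDCA cells before those cells were left out and 317, 165 and 258 after.

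**Figure D4:**
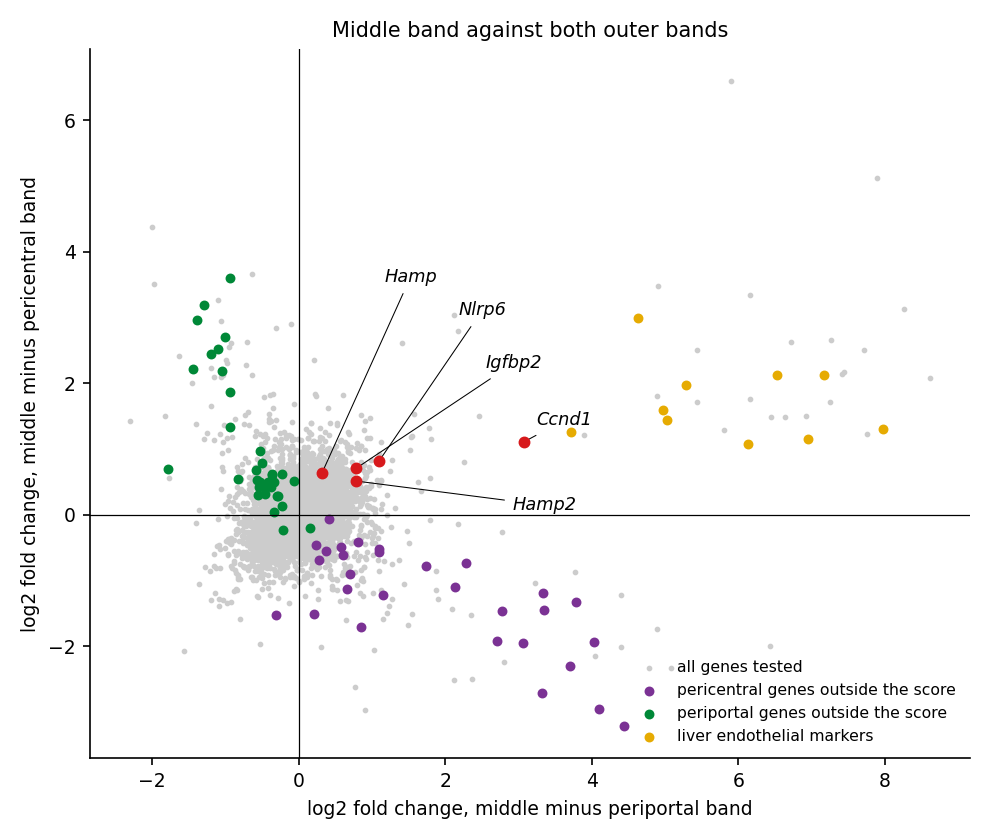
Each point is 1 of 6969 genes, with the fitted log2 difference of middle minus periportal band on the x axis and of middle minus pericentral band on the y axis. Most pericentral genes lie at the lower right, most periportal genes at the upper left and liver endothelial markers at the far right, while Igfbp2 (0.79 and 0.70), Nlrp6 (1.1 and 0.82), Hamp2 (0.79 and 0.51) and Hamp (0.32 and 0.63) lie in the upper right.

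Against either end alone, more genes passed the test. Against the periportal band 98 genes (1.41%) were higher in the middle and 58 (0.832%) lower, and against the pericentral band 105 (1.51%) were higher and 109 (1.56%) lower. Of 29 tested pericentral genes outside the score, 19 were higher in the middle than in the periportal band and 20 lower than in the pericentral band. Gulo, an enzyme of ascorbate synthesis, differed by 2.71 and -1.93, and Cldn2, a pericentral tight junction protein, by 4.40 and -1.22. Of 35 periportal genes outside the score, 15 were lower than at the periportal end and 18 higher than at the pericentral end. The middle was thus intermediate for both families, which the choice of cells by score fixes in part.

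Genes that control hepcidin followed no common direction. Of 20 tested of the 26 listed, 1 was higher in the middle than in the periportal band, Bmp2, against 1.41% of all genes tested. Against the pericentral band 0 passed the test. The medians were -0.09 and -0.02 against 0.01 and 0.01 over all genes. Bmp2, a BMP ligand of endothelial cells, stood at 23.1, 19.9 and 66.6 CPM in the middle band and at 1.06, 5.06 and 0 CPM in the periportal band. The difference was 4.63 (adjusted p 0.046) and 2.98 (0.18), and Bmp2 is also on the endothelial list. Tfr2 and Hfe, which help hepatocytes sense transferrin iron, lay below both ends in 3 of 3 libraries by small amounts, -0.18 and -0.29 for Tfr2 and -0.34 and -0.705 for Hfe, without passing the test. The remaining regulators, Id3 apart, ran from -0.53 for Stat3 at the periportal to 0.47 for Id2 at the pericentral comparison.

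Id3, a direct target of BMP signalling, differed in slope between libraries. It stood at 51.1 CPM periportal, 135 middle and 198 pericentral in ND. It stood at 18.55, 42.4 and 21.8 CPM in HFD and at 29.7, 48.1 and 24.8 CPM in HFD_HDCA. The middle was above both ends in HFD and HFD_HDCA and between them in ND, where all 5 values were above those of the other libraries. The fitted differences were 0.995 (adjusted p 0.20, edgeR) and 0.10 (0.93). In HFD the values at the ends rest on 11 UMIs each. Markers of sinusoidal cells stood at 17.0 CPM periportal, 431 middle and 811 pericentral in ND. In HFD and HFD_HDCA these markers were higher in the middle, at 877 and 894 CPM, than at either end. How far such cells carried the Id3 counts was not tested.

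Among 20 tested genes of iron handling, 2 were lower in the middle than in the periportal band and 2 higher than in the pericentral band. The shares over all genes tested were 0.832% and 1.51%. Hpx, the plasma haem binder, stood at 1927, 1298 and 1192 CPM in the middle of ND, HFD and HFD_HDCA, between 2694, 2840 and 2806 at the periportal and 646, 692 and 701 at the pericentral end. Its differences were -1.03 (adjusted p 1.1e-04) and 1.11 (9.4e-05). Trf, the plasma iron carrier, differed by -0.55 (0.032) and 0.30 (0.34). Slc40a1, ferroportin, stood at 189, 204 and 152 CPM in the middle, above both ends in 3 of 3 libraries, with differences of 0.18 (0.78) and 0.69 (0.044). Hpx alone thus passed both tests, in opposite directions, and ferroportin passed the test against the pericentral end. Ferroportin was called against both ends in 1 of 19 alternatives. Its periportal difference ran from -0.46 to 0.42, and its pericentral adjusted p (edgeR or DESeq2) reached 0.683. Kupffer and macrophage markers were also above the pericentral end, at 561 against 0 CPM in HFD and 352 against 2.25 in HFD_HDCA. How far such cells carried the ferroportin counts was not tested.

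Among 11 tested genes of the insulin-like growth factor axis, Igf1, the hormone itself, was lower in the middle than at the periportal end, with a log2 difference of -0.46 (adjusted p 0.036). Igfbp7, known from endothelial cells, was higher (0.029), with 29, 9 and 19 UMIs in the middle of ND, HFD and HFD_HDCA and 0 in each periportal band. Neither passed the test against the pericentral band, with adjusted p of 0.20 for Igf1 and 0.62 for Igfbp7. Of 8 tested growth and cell cycle genes of 22 listed, Ccnd1 alone passed a test. Over all genes tested, 1.41% were higher and 0.832% lower in the middle than in the periportal band. Ccnd1 stood at 39.1, 49.8 and 33.3 CPM in the middle of ND, HFD and HFD_HDCA, on 22, 20 and 18 UMIs. It was higher than at the periportal end by 3.07 (SE 0.71, adjusted p 0.018), and the difference from the pericentral end was 1.11 (SE 0.58, 0.42). In ND the pericentral band stood above the middle, at 50.9 CPM. Ccnd1 was called against both ends in 3 of 19 alternatives, 18 of which held a value. There its adjusted p (edgeR or DESeq2) reached 0.577 against the periportal and 0.892 against the pericentral end. Endothelial and Kupffer markers moved with these genes: 6 of 10 tested endothelial markers, among them Stab2 and Clec4g, and 2 of 4 Kupffer markers, Cd5l and Lyz2, were higher in the middle than in the periportal band. The share over all genes tested was 1.41%. With cells carrying 2 or more sinusoidal marker UMIs left out, Igfbp7 had 0, 1 and 0 UMIs in the middle band and Ccnd1 had 21, 19 and 9, and the differences of Ccnd1 were 2.76 (adjusted p 0.00198) and 1.03 (0.294). Bmp2, itself one of those markers, then had 0, 1 and 0 UMIs.

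Cyp8b1, the sterol 12-hydroxylase of bile acid synthesis, and Mup3, a urinary protein carrier, were on the list of other midlobular candidates. Cyp8b1 differed by -0.67 (adjusted p 0.080) and -0.46 (0.31), and Mup3 by -0.33 (0.25) and 0.34 (0.21), so neither was higher than both ends. The serum amyloid genes Saa1 and Saa2 were the members of the acute phase list that lay above both ends in 3 of 3 libraries. Saa1 stood at 96.1, 112 and 70.3 CPM in the middle of ND, HFD and HFD_HDCA, against 44.7, 54.0 and 38.6 periportal and 18.3, 59.5 and 23.7 pericentral. Its differences were 0.85 (adjusted p 0.30, edgeR) and 1.51 (0.042), and those of Saa2 were 1.405 (0.14) and 2.61 (0.014). Each gene was called against both ends in 4 of 19 alternatives. Over these, Saa1 ran from -0.88 to 1.62 against the periportal and from -0.33 to 2.28 against the pericentral end. Saa2, with a value in 17 of them, ran from -0.08 to 2.33 and from 1.84 to 3.53. Reads of these near-identical copies may be split between them. Of 18 early response and heat shock genes, 5 were higher than at the pericentral end, against 1.51% of all genes tested. Against the periportal end 0 passed the test, where 1.41% of all genes were higher and 0.832% lower.

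Diets were then compared within the middle band, as log2 ratios of CPM with 0.5 added to each count, among 3727 genes with at least 50 summed UMIs. HFD against ND had 200 genes (5.37%) at least 2-fold higher and 107 (2.87%) lower. For HFD_HDCA against HFD, 113 (3.03%) were higher and 93 (2.5%) lower, and for HFD_HDCA against ND 202 (5.42%) and 121 (3.25%). The median over all genes was 0.06, 0.03 and 0.10. The first pair of comparisons share the HFD library and both comparisons with ND share that library, so they are not independent.

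The 3 markers moved in different directions between diets. Hamp, at 6114, 3212 and 4656 CPM, was lower in HFD than in ND, with a log2 ratio of -0.93 (-1.02 to -0.84), and higher in HFD_HDCA than in HFD, at 0.54 (0.44 to 0.63). The ratio of HFD_HDCA to ND was -0.39 (-0.47 to -0.32), so HFD_HDCA lay between the other libraries. Hamp2, at 97.9, 281.5 and 814.5 CPM, was higher in HFD than in ND by 1.52 (1.05 to 2.02) and higher again in HFD_HDCA by 1.53 (1.23 to 1.84). Igfbp2, at 603, 436 and 196 CPM, went the other way, with -0.47 (-0.74 to -0.20) and then -1.15 (-1.51 to -0.80). Of the markers, Hamp2 passed the 2-fold size in HFD against ND, and Hamp2 and Igfbp2 in HFD_HDCA against HFD.

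These ratios differed in size at the ends of the lobule. For HFD against ND, Hamp was -2.31 in the periportal and -1.03 in the pericentral band, Hamp2 was 0.27 and 0.89, and Igfbp2 was -0.21 and -1.04. For HFD_HDCA against HFD, Hamp was 1.45 at the periportal end and -0.34 at the pericentral end, a change of sign. Hamp2 was 2.19 and 0.35, and Igfbp2 was -2.23 and -2.01. Among cells in the ND score range, where 270, 133 and 177 cells fall, the HFD to ND ratios were -1.97 for Hamp, 1.24 for Hamp2 and -0.61 for Igfbp2, and the HFD_HDCA to HFD ratios 1.28, 1.72 and -1.92. The signs of the 3 markers held in all 16 alternative settings in each of the 3 comparisons, but the HFD to ND ratio of Igfbp2 was -0.053 for cells of at least 800 genes, -0.076 for cells thinned to 1000 UMIs, -0.093 for cells of 1000 to 4000 UMIs and -0.15 with pooled percentiles.

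Hepcidin's regulators and the iron genes were compared by the same size. Of 14 measured regulators, 1 was at least 2-fold higher and 2 lower in HFD than in ND (5.37% and 2.87% of all genes), with a median of 0.10. Id3 stood at 135, 42.4 and 48.1 CPM in ND, HFD and HFD_HDCA, with ratios of -1.64 (-2.53 to -0.90) and 0.17 (-0.75 to 1.16). Of 17 iron handling genes, Alas1 alone was 2-fold higher in HFD, and 0 were in HFD_HDCA against HFD. Alas1, the first enzyme of haem synthesis, stood at 44.5, 341 and 392 CPM, with ratios of 2.92 (2.32 to 3.62) and 0.20 (-0.12 to 0.52). Among 9 genes of the insulin-like growth factor axis, Igfbp1, an insulin-repressed binding protein, stood at 295, 685 and 361 CPM, with 1.21 (0.93 to 1.501) and -0.92 (-1.20 to -0.65). HFD was thus the highest library for Igfbp1, while Igfbp2 was highest in ND. Ccnd1 was within counting error, at 0.35 (-0.60 to 1.29) and -0.58 (-1.58 to 0.41).

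Pericentral genes separated ND from the other libraries in the middle band more than at the ends. Of 24 measured pericentral genes outside the score, 12 were at least 2-fold higher and 3 lower in HFD than in ND. The shares over all genes were 5.37% and 2.87%. The median of the list was 1.03, against medians of -0.01 in the periportal and 0.37 in the pericentral band. Within the ND score range the median of the list, over 21 genes, was -0.06, and with pooled percentiles it was 0.12. Gulo stood at 16.01, 252 and 224 CPM in ND, HFD and HFD_HDCA. Its HFD to ND ratio was 3.90 (2.99 to 5.14) in the middle, 1.02 and 1.76 at the ends, 2.02 in the ND score range and 1.296 with pooled percentiles. Cldn2 stood at 7.12, 92.2 and 118 CPM, on 4, 37 and 64 UMIs. Its ratio was 3.54 (2.22 to 5.64) in the middle, 0.51 at the pericentral end, 2.56 in the ND score range and 1.23 with pooled percentiles, and at the periportal end Cldn2 had 3 and 1 UMIs in ND and HFD. Gulo and Cldn2 led the genes whose ratio in the middle lay farthest from both ends. The difference of the list moved with the score band, whose median was -4.63 in ND, 1.67 in HFD and 4.47 in HFD_HDCA.

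**Figure D5:**
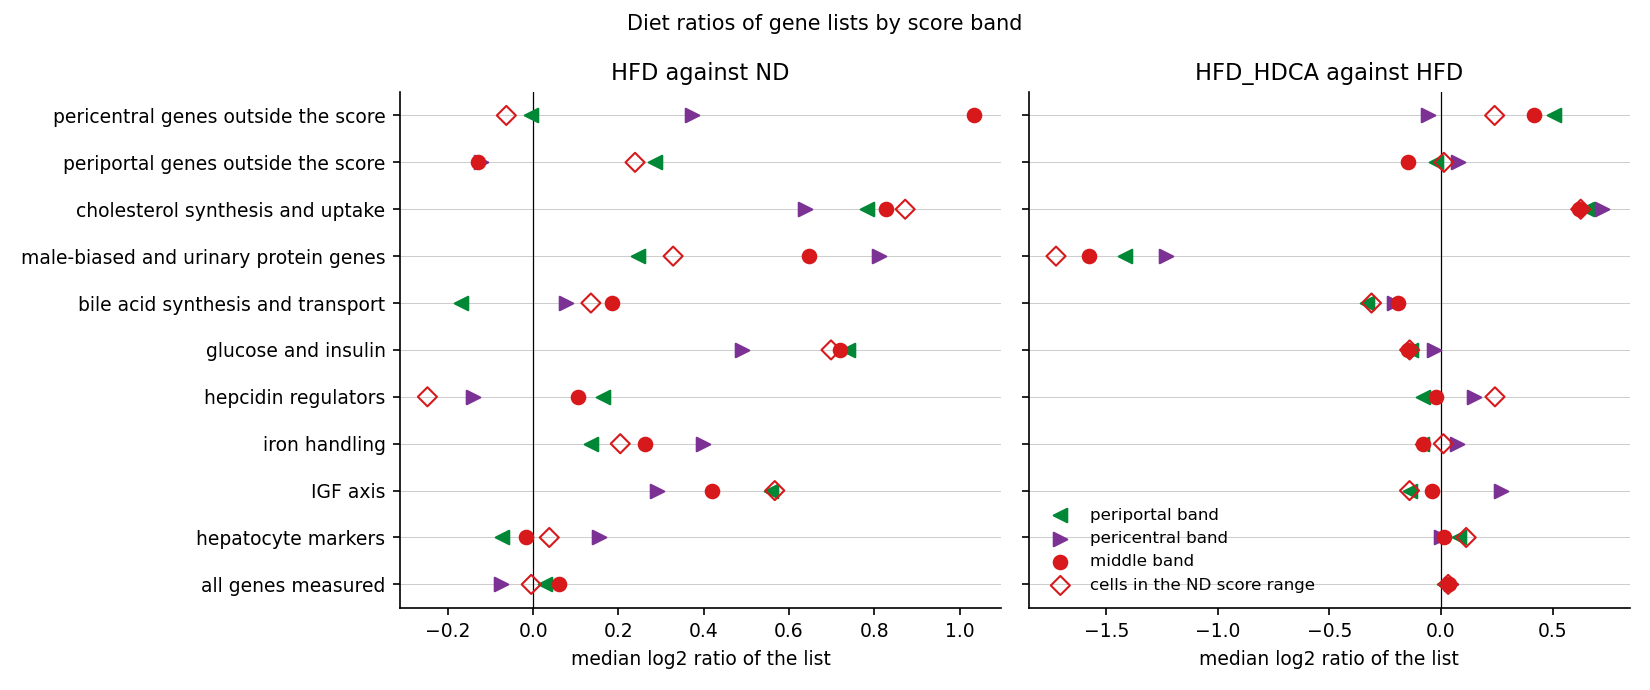
Median log2 ratio (x axis) of each gene list (y axis) in the periportal, middle and pericentral bands. Panels hold the ratios of HFD to ND and of HFD_HDCA to HFD, with open diamonds for the cells of each library in the ND score range. Pericentral genes outside the score stand at 1.03 in the middle band for HFD to ND and at -0.06 in the ND score range.

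Cyp3a11, Angptl8, Lpin1 and Rgs16, among the genes with the largest HFD to ND ratios in the middle band, differed in the same direction at both ends. Cyp3a11, a drug-metabolising P450, stood at 3840, 37.4 and 117 CPM in ND, HFD and HFD_HDCA, a ratio of -6.64 for HFD to ND. At the pericentral end the ratio was -4.68, and at the periportal end ND had 3174 UMIs and HFD 2. Angptl8, an insulin-induced inhibitor of lipoprotein lipase, stood at 710, 29.9 and 87.0 CPM, with -4.51 in the middle and -3.88 and -5.03 at the ends. Lpin1, a phosphatidate phosphatase, stood at 65.8, 989 and 450 CPM, with 3.89 in the middle and 4.21 and 5.15 at the ends. Rgs16, a regulator of G protein signalling, stood at 16.01, 311 and 200 CPM, with 4.21 in the middle and 5.42 and 3.19 at the ends. ND stood apart from both high fat libraries for all 4 genes.

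Further genes with large HFD to ND ratios were Mup17 at 4.03 (3.67 to 4.43) and, at the low end, Gsta2 at -3.08, Bcl6 at -2.44 and Shfl at -2.22. Etnppl, a phosphoethanolamine lyase, was at -2.21 in the middle, with -0.45 at the periportal and -4.22 at the pericentral end. Tstd1 was at -3.28 but at 0.29 in the ND score range, and Kcnq1ot1 at -2.57. Cd74, an antigen presentation gene of immune cells, stood at 1.78, 57.3 and 146 CPM, on 1, 23 and 79 UMIs, with 4.46 (2.39 to 10.4) for HFD against ND. Kupffer markers were also higher in HFD than in ND, at 85.4, 561 and 352 CPM in the 3 libraries, and unlike Cd74 lower in HFD_HDCA than in HFD. With cells carrying sinusoidal markers left out, Cd74, which is not one of those markers, had 0, 0 and 1 UMIs. Haemoglobin transcripts were at 0 UMIs in the middle band of ND and HFD_HDCA and at 119 for Hbb-bs, 82 for Hba-a1 and 53 for Hba-a2 in HFD, all from 1 cell.

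Between HFD and HFD_HDCA, the urinary protein and male-biased genes were lower in HFD_HDCA. Of 22 measured, 16 were at least 2-fold lower and 0 higher in the middle band, with a median of -1.58, against 93 of 3727 genes (2.5%) and a median of 0.03 over all genes. The medians at the ends were -1.42 and -1.23. In HFD against ND 9 members were higher and 2 lower (5.37% and 2.87% of all genes), with a median of 0.65. Mup7, a pheromone carrier, stood at 308, 1702 and 120 CPM, with -3.81 (-4.21 to -3.45) for HFD_HDCA against HFD. Selenbp2, a selenium-binding protein, stood at 274, 561 and 5.55 CPM, with -6.44 (-8.95 to -5.09) on 3 UMIs in HFD_HDCA. Mup16 was at -3.33 (-4.16 to -2.65) and Eif4ebp3, a repressor of translation, at -3.49 (-5.59 to -2.16). HFD was highest for these genes and HFD_HDCA lowest. Reads of the Mup copies may be split between them.

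Cyp7a1, which starts the classical route of bile acid synthesis, had 18, 90 and 3 UMIs in the middle band of ND, HFD and HFD_HDCA, which is 32.0, 224 and 5.55 CPM. The ratio was 2.78 (2.07 to 3.63) for HFD against ND and -5.12 (-7.64 to -3.74) for HFD_HDCA against HFD, with -3.57 at the pericentral end and 9 against 0 UMIs at the periportal end. Of 27 genes of bile acid synthesis and transport, 1 was at least 2-fold higher and 4 lower in HFD_HDCA than in HFD (3.03% and 2.5% of all genes). Cholesterol genes had medians above 0 in the middle and at both ends in both comparisons. They thus differed in direction from Cyp7a1 only for HFD_HDCA against HFD. Of 19 measured, 9 were higher in HFD than in ND (5.37% of all genes, median 0.83, with 0.78 and 0.64 at the ends) and 3 in HFD_HDCA than in HFD (3.03% of all genes, median 0.62, with 0.66 and 0.72), with 0 lower in either. Sqle, squalene epoxidase, stood at 10.7, 37.4 and 88.9 CPM in ND, HFD and HFD_HDCA, so that ND was lowest and HFD_HDCA highest.

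Genes with the highest ratio of HFD_HDCA to HFD included 3 cytochrome P450 genes. Cyp2b9 had 0, 1 and 98 UMIs, a ratio of 5.61 (3.67 to 11.5). Cyp2a5 stood at 5.34, 17.4 and 122 CPM, with 2.72 (1.68 to 4.18), and Cyp2c37 at 35.6, 79.7 and 366.5 CPM, with 2.18 (1.66 to 2.79). HFD_HDCA was highest for all 3, and Cyp2a5 and Cyp2c37 are pericentral genes, whose list was higher by a median of 0.42. In the ND score range the ratio of HFD_HDCA to HFD was 0.032 for Cyp2a5 and 0.57 for Cyp2c37. Serpina7, the thyroxine carrier, was at 3.45 (2.03 to 5.98) and Fitm1, a lipid droplet protein, at 2.35 (1.29 to 3.82).

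Cxcl9 at 4.33 (2.33 to 10.2), Ehd3 at 2.84 (1.54 to 4.94) and Kdr, a receptor of endothelial cells, at 2.14 (1.06 to 3.62) were also among the highest. Endothelial markers moved with them, at 311, 217 and 472 CPM in ND, HFD and HFD_HDCA. With cells carrying sinusoidal markers left out, Ehd3 had 0, 0 and 1 UMIs and Kdr, itself one of those markers, had 0 in each library. Cxcl9 kept 20, 1 and 40 UMIs without those cells, with a ratio of 4.33, and in the ND score range it was at -2.94. It had 1 UMI in HFD_HDCA and 1 in HFD for cells thinned to 1000 UMIs and for cells of 1000 to 4000 UMIs. The same counts were found with pooled percentiles and sinusoidal-marker cells left out.

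The genes whose diet ratio in the middle lay farthest from both ends, 6 per comparison, were mostly low in counts. For HFD against ND they were, after Cldn2 and Gulo, Psmd5 at 1.46 (0.58 to 2.45), Mrpl16 at 1.18 (0.18 to 2.27), Mark3 at 0.80 and Mef2a at 0.75. For HFD_HDCA against HFD they were Akap9 at 1.59 (0.52 to 2.98), Lsr at 1.33 (0.51 to 2.30), Tsen34 at 1.33, Ldah at 1.25, Pglyrp2 at -1.53 and Mark3 at -1.46. All of them but Cldn2 and Gulo rest on 8 to 63 UMIs per library. Nlrp6, the gene called in the middle band, was at 0.72 (0.02 to 1.42) and -0.29 (-0.94 to 0.36), within the 2-fold size in both comparisons.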

How the data were processed

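The deposited matrices of 3 libraries hold UMI counts, which the authors made with Cell Ranger 5.0.0 (per the file headers) on mm10 (per the submitters' processing notes). The selection of their barcodes is not described in the sources used here. The members and lists were chosen with earlier results of these data known.

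Counts outside the 8 score genes and the mitochondrial genome were summed per library and score band. The 15 sums were fitted with edgeR 4.0.16 (R 4.3.3, TMM normalization, quasi-likelihood test, library and band as terms) over 6969 genes with at least 100 summed counts. P-values were adjusted by Benjamini-Hochberg over all of these genes. Bands of 1 library come from the same animals. The p-values rest on the spread of the sums that is left after the library and band terms. With 1 library per diet they do not measure the spread between mice. DESeq2 1.42.0 was an alternative. CPM have exact Poisson and diet ratios exact conditional binomial 95% intervals, computed with Python 3.11.15 and scipy 1.17.1, which cover counting error only.

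Named genes were the markers, the members of 5 lists (midlobular candidates, hepcidin regulators, iron handling, insulin-like growth factor axis, growth), up to 10 called genes per direction, and the 8 highest and 8 lowest diet ratios among genes reaching 50 CPM. Up to 3 members of each list and 6 genes per comparison whose ratio lay apart from both ends were added. Mitochondrial and ribosomal protein genes, unnamed gene models, Xist and Y-linked genes were left out of the ranked sets. Other X-linked genes were kept. The text names a selection of these genes. Positions are from GENCODE M21. The statistics were tested on simulated data. Alternatives changed scaling, filters, score borders, depth, the library term and the cells kept.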

Additional observations from a re-analysis of the deposited data

Results flagged for a closer look

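The step of Hamp from the periportal to the middle band went in opposite directions in different libraries. The log2 ratio of middle to periportal was -0.14 in ND, 1.24 in HFD and 0.33 in HFD_HDCA, and the counting intervals of ND and of both others lay on opposite sides of 0. The difference between libraries was not tested, since each diet has 1 library. The score range of the middle band differed between the libraries as well. Id3, a target of BMP signalling, had a log2 ratio of middle to pericentral of -0.54 in ND and 0.95 in HFD_HDCA, again with counting intervals on opposite sides of 0. That difference was not tested either. Markers of sinusoidal cells also differed in direction, at 431 CPM middle and 811 pericentral in ND and 894 and 13.5 CPM in HFD_HDCA. How far such cells carried the Id3 counts was not tested.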

How the results depend on the processing

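The fit of the bands has the library as a block, which pairs the bands of a library. No paired analysis was possible between diets because each has 1 library. The number of genes higher in the middle band than at both ends was 1, and it was 17 with no filter on low counts, 4 with the middle and outer bands alone in the fit, 4 without cells carrying markers of any other cell type, 3 without sinusoidal-marker cells, 2 for the 45th to 55th percentile, 2 for cells of 1000 to 4000 UMIs, 81 with pooled percentiles, 15 with pooled percentiles and those cells left out, and 0 for cells of at least 800 genes, for cells thinned to 1000 UMIs and with no replicate block (the library term left out). Leaving out 1 library at a time gave 0 to 17 higher and 0 to 1 lower. Pooled percentiles gave 11 lower, or 3 with those cells left out. Pooled percentiles, leaving out sinusoidal-marker cells and the depth range were added after seeing the data. Where a cause is not part of an alternative's own construction, the cause was not tested.

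Against the periportal band, 98 genes were higher and 58 lower in the middle. These counts were 288 and 131 with no filter, 4 and 0 with no replicate block, 26 and 6 for at least 800 genes, 49 and 26 for thinned cells, 246 and 230 for pooled percentiles, 174 and 152 with those cells also left out, and 37 and 22 for 1000 to 4000 UMIs. DESeq2 gave 38 lower. Leaving out 1 library gave 22 to 164 higher and 2 to 159 lower, the highest counts without ND and the lowest without HFD_HDCA. Against the pericentral band, 105 were higher and 109 lower. These counts were 68 and 69 with DESeq2, 0 and 0 with no replicate block, 229 and 195 for at least 800 genes, 45 and 39 for thinned cells, 327 and 305 for pooled percentiles, 244 and 182 with those cells also left out, and 52 and 54 for 1000 to 4000 UMIs. With no filter 182 were higher, and for the 45th to 55th percentile 66 were lower. Leaving out 1 library gave 26 to 116 higher and 25 to 118 lower, the highest again without ND and the lowest without HFD.

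For the diets, a summed count of at least 20 gave 468 higher and 391 lower genes in HFD over ND, 453 and 266 in HFD_HDCA over HFD, and 500 and 303 in HFD_HDCA over ND. A count of at least 200 gave 62 and 17, 18 and 24, and 59 and 35. Genes lower in HFD than in ND numbered 68 for thinned cells, 246 with pooled percentiles and 174 with sinusoidal-marker cells also left out. Genes higher and lower in HFD_HDCA than in HFD numbered 71 and 60 for the 45th to 55th percentile and 63 and 55 for thinned cells, and 144 were lower with each cell weighted equally. Against ND, HFD_HDCA had 134 higher genes in the ND score range and 72 lower in thinned cells.

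Log2 ratios of at least 2-fold that changed sign for HFD against ND were Tstd1 at 0.29, Mrpl16 at -0.18 and Cyp2c37 at -0.29 in the ND score range, Cxcl9 at 2.36 and Selenbp2 at -0.035 for at least 800 genes, Cyp2a5 at -1.66 and Cyp2c37 at -0.21 with pooled percentiles, and -1.77 and -0.25 with sinusoidal-marker cells also left out. For HFD_HDCA against HFD they were, in the ND score range, Cd74 at -6.28, Tstd1 at -1.02, Etnppl at 0.17, Cxcl9 at -2.94, Ehd3 at -1.43, Akap9 at -0.033, Tsen34 at -0.11 and Pglyrp2 at 0.027. Bmp2 was at -1.64 for the 45th to 55th percentile and -0.77 with at most 20% mitochondrial counts, Tstd1 at -0.27 for at least 800 genes and -0.066 for thinned cells, Kcnq1ot1 at -0.96 for thinned cells, Kdr at -0.28 for 1000 to 4000 UMIs, and Etnppl at 0.14 with pooled percentiles and 0.16 with those cells also left out. Smaller ratios changed sign as well and are not listed, such as those of Ccnd1, Mef2a and Fitm1 for HFD against ND (lowest -0.99, -0.33 and -2.99) and of Cldn2 and Id3 for HFD_HDCA against HFD (lowest -2.65 and -0.60). Ratios with at most 3 UMIs in both libraries were not given, 78 over all settings and 10 genes. Nlrp6 and Ccnd1 rest on under 50 UMIs per library in the middle band, which limits their precision.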
